A study of Mus musculus with 2 samples.

Results

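Terminal mature neutrophils rich in Csf3r were examined in single-cell RNA profiles of mouse bone marrow. These cells were chosen by their own counts. A barcode needed 1000 or more unique molecular identifiers (UMIs, each standing for 1 captured transcript) and under 10% of UMIs from mitochondrial genes. S100a8 and S100a9 had to make up at least 5% of its UMIs, the secondary granule transcripts Camp, Ngp and Ltf under 2%, and the primary granule transcripts Elane, Mpo, Prtn3 and Ctsg under 1%. It also needed at least 1 Csf3r UMI and no fewer Csf3r than Mmp8 UMIs. The rule selected 1354 of the 23794 barcodes that passed the UMI and mitochondrial limits, out of 31569 barcodes in all.

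The series set bone marrow hematopoietic cells with forced MYC against control cells, each group being 1 droplet-based 3′ library. Control cells had the genotype Mx1Cre+/-;Rosa26+/+, which carries the Cre recombinase but no altered Rosa26 locus. Cells of the MYC library had the genotype Mx1Cre+/-;Rosa26LSL-MYC/LSL-MYC, in which both Rosa26 alleles carry MYC behind a stop cassette that Cre removes. Both genotypes share the Mx1-Cre allele, whose promoter answers to interferon. The labels give neither the agent and time of induction nor the age, sex or number of mice behind a library. With 1 library per group there was no replicate check and no test. Where 2 values are joined by "and" without further label, the control stands first and the MYC library second. Intervals are 95% intervals for counting error only, and no value separates the genotype from any other difference between the libraries.

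Neutrophils mature in the bone marrow from granule-making precursors, and the order in which granule proteins are transcribed marks the stage. Primary and secondary granule genes are shut down first, the gelatinase granule genes such as Mmp8 come late, and the last cells before release turn on receptors for chemoattractants and inflammatory transcripts. Csf3r encodes the receptor for granulocyte colony-stimulating factor (G-CSF), which drives neutrophil production and release, Cxcr2 the receptor for the chemokines that draw neutrophils out of the marrow, and Il1b the inflammatory cytokine interleukin-1β.

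The control library gave 943 of these neutrophils and the MYC library 411. They held 3039393 and 1485876 UMIs, with medians of 3021 and 3598 UMIs and of 1102 and 1154 genes per barcode. Mitochondrial genes took a median of 0.580% and 0.850% of a member's UMIs. The libraries shared 97 barcode sequences, none of them a member in both. Members above 10000 UMIs numbered 11 and 5 and held 6.18% and 6.25% of the member UMIs. A Scrublet doublet score over 0.2 was found for 22 (2.33%) of the control members and 10 (2.43%) of the members from the MYC library. Gm42418, a gene model that overlaps ribosomal RNA sequence and is named here after its values were seen, took 176144 (control) and 147928 (MYC) of every 1000000 UMIs, the unit called CPM below.

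Transcripts listed as markers of other cell types were present in the members, and their summed level differed between the libraries. The 8 erythroid markers summed to 7279 and 2343 CPM, and 42.2% of those control UMIs sat in the barcodes over 10000 UMIs. At least 3 erythroid UMIs were found in 99% and 95.4% of the members. The 8 B-lineage markers summed to 259.3 and 68.65 CPM and the 8 basophil or mast cell markers to 1104 and 546.5 CPM. Most of the basophil sum was Hdc, at 792.6 and 459.7 CPM, which had a UMI in 755 and 275 of the members and was higher here than in the stage before in both libraries. For the 8 monocyte markers the sums were 1074 and 848.7 CPM, with Mpeg1 at 491.2 and 201.9 CPM in 639 and 171 members, and for the 8 macrophage markers 101.7 and 178.3 CPM, with C1qa at 4.277 and 37.69 CPM. Of the 56 C1qa UMIs in the MYC library 37 came from 1 barcode, and barcodes over 10000 UMIs held 1.94% and 40% of the macrophage marker UMIs. The sums of the T or NK cell, eosinophil, megakaryocyte and stem cell markers lay between 30.29 and 55.86 CPM in both libraries, and Procr was at 0 in both. The macrophage marker Cd5l and the dendritic cell marker Cd209a were at 0 in the MYC library, as were the eosinophil markers Ear1, Ccr3 and Il5ra. The part of these transcripts in the differences below was not tested.

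The feature named MYC, which stands for the transgene by its name although its sequence is not stated, had 0 UMIs in the control members, which allows up to 1.21 CPM. In the MYC library it had 19 UMIs in 17 of the 411 members, or 12.79 CPM (7.70 to 20). The corresponding levels were 9.779 CPM in neutrophils of the stage before and 3.027 CPM in immature neutrophils of that library. The presence of the feature in the MYC library only accords with the labels. The mouse gene Myc had 14 UMIs (4.606 CPM) in the control members and 16 UMIs (10.77 CPM) in those of the MYC library, and 7 of these 16 came from 1 barcode. The Myc ratio of 1.07 became -0.12 when the gate was set on thinned counts.

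Among the 3 genes that mark these cells, Csf3r was used to select them, and its level is a description. Csf3r (ENSMUSG00000028859, chr4:126024550-126044440, plus strand, GRCm38) stood at 2283 CPM (control) and 1318 CPM (MYC). Cxcr2 (ENSMUSG00000026180, chr1:74153989-74161246, plus strand) stood at 2125 and 1298 CPM. Il1b (ENSMUSG00000027398, chr2:129364570-129371139, minus strand) stood at 1406 and 1237 CPM. Cxcr2 and Il1b were not part of the rule, and both were higher here than in the neutrophils with more Mmp8 than Csf3r, called gelatinase-stage neutrophils below, where Cxcr2 reached 1487 and 1000 CPM and Il1b 191.4 and 186.9 CPM. In immature neutrophils, with Camp, Ngp and Ltf at 2% or more, Il1b stood at 16.79 and 6.810 CPM. The markers therefore fit the label in both libraries.

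When each barcode was thinned to 1000 UMIs, Cxcr2 was detected in 84.3% of the control members (81.8 to 86.6) and 67.9% of those from the MYC library (63.1 to 72.4). Il1b was detected in 58.4% (55.2 to 61.6) and 54.5% (49.5 to 59.4). Both transcripts together were seen in 50.9% and 38.9% of the members. Unthinned, Cxcr2 had a UMI in 95.4% and 91.2% and Il1b in 77.8% and 77.1%. Barcodes with B-cell markers, which should lack both genes and had median depths of 5563 and 8145 UMIs, showed Cxcr2 in 2.32% and 1.17% and Il1b in 1.39% and 2.62% after thinning. The neutrophil shares were far above that background.

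**Figure D1:**
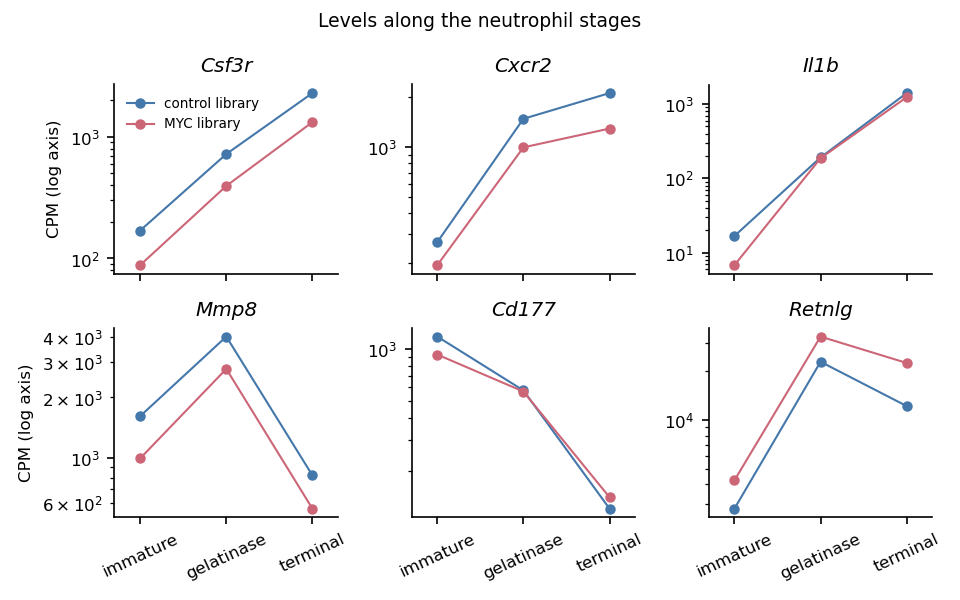
CPM (log axis) of 6 genes in immature, gelatinase-stage and terminal neutrophils of the control library (blue) and the MYC library (red), 1 point per library and stage. Csf3r and Mmp8 define the last step, while Cxcr2 and Il1b, which the rule did not use, are highest in the terminal neutrophils of both libraries and Cd177 is lowest there.

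Terminal neutrophils formed a smaller share of the MYC library. They were 943 of 13251 kept control barcodes, or 7.12% (6.68 to 7.57), and 411 of 10543, or 3.9% (3.54 to 4.29), a difference of -3.22 percentage points (-3.80 to -2.64). With S100a8 and S100a9 at 10% or more the shares were 4.91% and 3.15%, a difference of -1.76 points, and S100a9, on which the gate rests, was itself at 73525 and 106939 CPM. Of all neutrophil-gate barcodes they were 13.2% of 7125 and 6.72% of 6117. Among the mature neutrophils alone, those under the limit for secondary granule transcripts, they were 33.3% of 2830 and 17.6% of 2334.

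Gelatinase-stage neutrophils were 25.7% and 28.7% of the neutrophil gate, and immature neutrophils 60.3% and 61.8%, a difference of 1.56 points whose interval (-0.114 to 3.24) includes 0. Mature neutrophils with neither Csf3r nor Mmp8 were 0.814% and 2.73% of the gate, with median depths of 1201 and 1119 UMIs. Because membership rests on Csf3r against Mmp8, the levels of these 2 genes bear on the share. Csf3r was lower in the MYC library at every stage, at 720.6 and 394.4 CPM in gelatinase-stage and 169.7 and 88.19 CPM in immature neutrophils. Mmp8 was lower as well, at 4015 and 2774 CPM in gelatinase-stage neutrophils. Their part in the difference of shares was not tested. Counting only members without any Mmp8 UMI, the shares of kept barcodes were 1.42% and 0.986%.

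**Figure D2:**
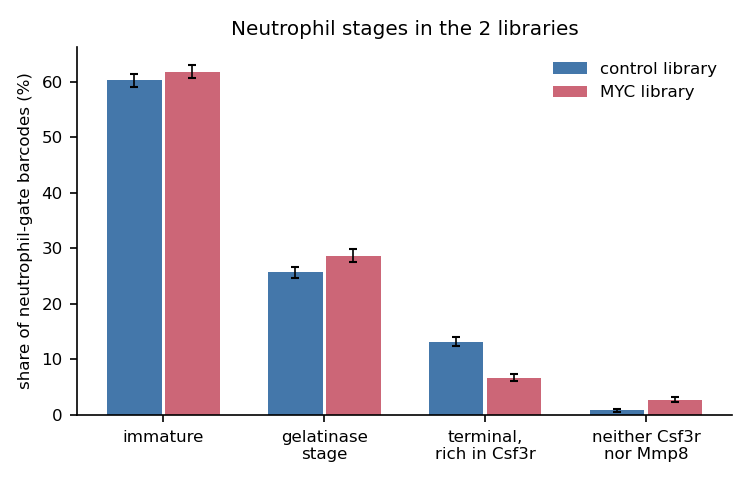
Share of neutrophil-gate barcodes (%) in each stage for the control library (blue, 7125 barcodes) and the MYC library (red, 6117 barcodes), with 95% Clopper-Pearson intervals that cover counting error only. Terminal neutrophils make up 13.2% and 6.72%.

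The border with the gelatinase stage was gradual. The 110 control members with equal Csf3r and Mmp8 counts had Il1b at 679.2 CPM and Cxcr2 at 1825 CPM, and the 102 barcodes just outside, with 1 Csf3r UMI fewer than Mmp8, had 839.8 and 1798 CPM. In the MYC library the 80 barcodes just inside had Il1b at 682.7 and Cxcr2 at 1156 CPM, and the 65 just outside 792.0 and 1159 CPM. Within the members Il1b was higher where Mmp8 was lower. Control members with 0, 1 to 2, and 3 or more Mmp8 UMIs had Il1b at 2175, 1631 and 1021 CPM, and those of the MYC library at 1598, 1289 and 964.0 CPM. Retnlg, a resistin-like transcript of the gelatinase stage, ran the other way, at 6127, 10871 and 14878 CPM among control members and 10839, 22657 and 29390 CPM among those of the MYC library. Cxcr2 did not follow Il1b. It was at 1999, 2236 and 2094 CPM among control members, and rose with Mmp8 in the MYC library, at 1053, 1298 and 1449 CPM. At the limit for S100a8 and S100a9, the 68 control members with 5 to 6% of their UMIs from these genes had Il1b at 2244 CPM and the 77 barcodes with 4 to 5% had 1983 CPM. At the limit for secondary granule transcripts, the 42 control members at 1.5 to 2% had Cxcr2 at 319.7 CPM and the 51 barcodes at 2 to 2.5% had 92.46 CPM, both low beside the 2125 CPM of all control members. In the MYC library the order was the other way, with Cxcr2 at 55.31 CPM in the 16 members inside that limit and 370.3 CPM in the 13 barcodes outside it.

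Terminal neutrophils were then set beside gelatinase-stage neutrophils in each library, as a description, since counts of the same barcodes placed them in the stages. Of 4324 genes averaging 20 CPM or more, 46 (1.06%) were over 2-fold higher in terminal neutrophils in both libraries and 37 (0.856%) over 2-fold lower in both. Ratios are given as log2 values with 1 CPM added to each level. Prr5l, which encodes a protein of the mTORC2 complex, had ratios of 3.14 (control) and 2.81 (MYC), and Il1b 2.87 and 2.72. Ptgs2, which encodes the prostaglandin-forming enzyme cyclooxygenase-2, had 2.25 and 2.0, and Fgl2, which encodes a fibrinogen-like protein, 2.13 and 1.88. The other genes among the 10 with the largest common ratios were Wfdc17 (2.21 and 1.79), Socs3, an inhibitor of cytokine signalling (1.96 and 1.70), Sirpb1c (1.67 and 1.72), Pla2g7, a lipase that degrades platelet-activating factor (1.81 and 1.48), Marcks (1.47 and 1.57) and the receptor chain gene Il13ra1 (1.59 and 1.44).

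Surface proteins and an oxidase subunit of earlier stages were among the genes that were lower. Cd177, a surface protein of neutrophils, had ratios of -2.24 and -2.01, and Itgb2l, an integrin chain of immature granulocytes, -2.50 and -1.95. Adpgk had -2.40 and -1.64, Syne1 -2.04 and -1.47, the receptor gene Gpr27 -3.00 and -1.45, and the interferon-inducible family member Ifitm6 -1.76 and -1.45. Golim4 (-2.12 and -1.35), Anxa3 (-1.58 and -1.34), Cybb, the membrane subunit of the NADPH oxidase (-1.51 and -1.33), and the actin-capping gene Capg (-1.30 and -1.32) completed the 10. All 20 genes kept their direction under every alternative setting tried.

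By group, the 35 interferon-response genes with at least 50 UMIs had median stage ratios of 0.58 and 0.20, the 13 immediate-early genes 0.63 and 0.56, and the 6 chemokine genes 0.85 and 0.64, beside 0.04 and 0.04 over all genes. The 9 secondary granule genes had -0.67 and -0.38 and the 11 gelatinase granule genes -0.41 and -0.50. Over the 8 sums of 4 neutrophil stages and 2 libraries, genes whose log2 CPM followed that of Csf3r closely, among those averaging 50 CPM or more, were Marcks (r = 0.993) and Sbno2, Atp2b1 and Preb (r = 0.991 each). These sums share libraries and stages, and each r is a description.

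The MYC and control members were compared next. Of 4322 genes averaging 20 CPM or more, 107 (2.48%) were over 2-fold higher in the MYC library and 202 (4.67%) over 2-fold lower, and the median log2 ratio over these genes was -0.17. Median-of-ratios scaling, which moves that median to 0.00, gave 190 higher and 123 lower, so the split between directions depends on the scaling, and gene groups are best read against -0.17. Of the 53 genes named for this comparison that were past 2-fold, 16 were not past it under at least 1 alternative setting, and 30 of all 135 named genes moved by over 1.5 times under at least 1. Such values stand beside the ratios, most of them from the 188 and 104 members with 0 Mmp8 UMIs, called without Mmp8. Among genes averaging 50 CPM or more, the naming rule placed Prok2, Stfa2 and Cd14 first on the higher side and Rsad2, Cmpk2 and Ifit1 first on the lower.

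**Figure D3:**
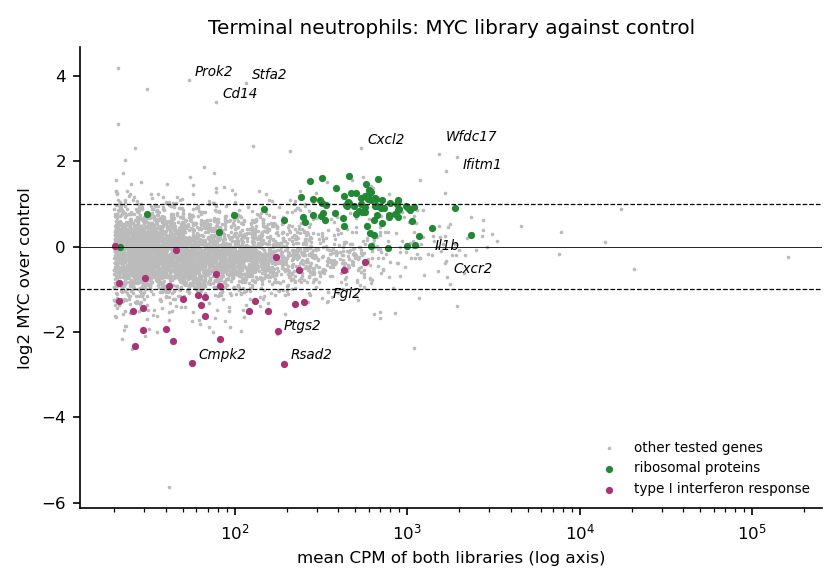
log2 ratio of CPM in terminal neutrophils, MYC library over control, against the mean CPM of both libraries (log axis), for 4322 genes, with dashed lines at 2-fold. Ribosomal protein genes (green) lie mostly above 0 and type I interferon response genes (purple) mostly below it.

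Genes of the type I interferon response were lower in the terminal neutrophils of the MYC library. Of the 35 listed genes with at least 50 UMIs, 23 were over 2-fold lower and 0 over 2-fold higher, against 6.24% lower and 2.23% higher among all 5884 genes with that many UMIs, and their median log2 ratio was -1.30. Together they made up 0.5004% of the control members' UMIs and 0.2393% of those in the MYC library. Rsad2 (ENSMUSG00000020641, chr12:26442746-26456452, minus strand), which encodes the antiviral protein viperin, was at 338.9 CPM (319 to 360) and 49.80 CPM (39.1 to 62.5), giving a log2 ratio of -2.74 (-3.13 to -2.43). Its neighbour Cmpk2, a mitochondrial nucleotide kinase gene, was at 99.36 and 14.13 CPM (-2.73). Without Mmp8 the ratios of Rsad2 and Cmpk2 were -1.97 and -1.42. Ifit2, Ifit1 and Ifit3b encode proteins that bind viral RNA or block its translation. Their levels were 28.30 and 2.692 CPM (-2.99, interval -5.30 to -1.99, from 4 UMIs in the MYC library), 135.9 and 29.61 CPM (-2.16), and 44.75 and 8.076 CPM (-2.33). Of the 44 Ifit1 UMIs in the MYC library 22 came from 1 barcode, and among members without Mmp8 the Ifit1 ratio was -0.60. When the gate was set on thinned counts the ratios of Ifit2 and Ifit3b were -1.90 and -1.57.

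Not every listed gene took part. Samd9l stood at 189.5 and 159.5 CPM (-0.25), Zbp1 at 47.05 and 44.42 CPM, Bst2 at 20.07 and 20.19 CPM and Dhx58 at 13.82 and 16.15 CPM, and the intervals of the last 3 ratios include 0. The Schlafen genes Slfn5 and Slfn8, which are induced by interferon in many cells, were at 286.9 and 72.01 CPM (-1.98) and at 95.74 and 28.27 CPM (-1.72). The list median stayed between -1.33 and -0.86 over the alternative settings. It was -0.86 in gelatinase-stage neutrophils, beside -0.19 over all genes there. Dendritic cell markers, some of which belong to the cells that make interferon, summed to 218.5 and 148.7 CPM in the members, and their part in the interferon ratios was not tested.

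The lower level was spread over the members and was not set by a few control barcodes alone. With every barcode thinned to 1000 UMIs, the control members held a median of 3 UMIs from the interferon list and those of the MYC library 2. At least 5 such UMIs were found in 37.3% of the control members and 14.4% of those of the MYC library. None was found in 5.94% and 20%. Rsad2 itself was detected in 19.8% (17.3 to 22.5) and 4.87% (3.0 to 7.42) of the thinned members, beside 2.01% and 2.33% of the barcodes with B-cell markers, and unthinned in 36.9% and 10.2%.

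**Figure D4:**
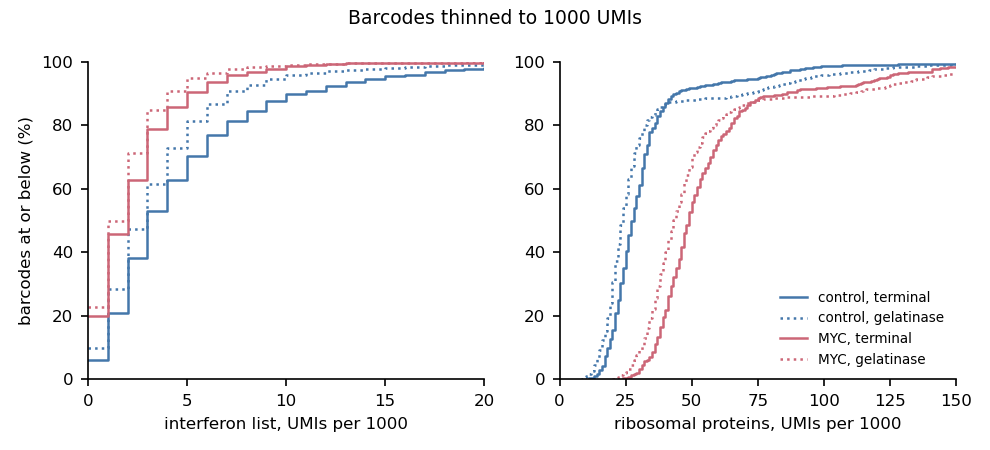
Cumulative share of barcodes (%) at or below a number of UMIs from the interferon list (left) and from ribosomal protein genes (right), after thinning each barcode to 1000 UMIs, for terminal (solid) and gelatinase-stage (dotted) neutrophils of the control (blue) and MYC (red) libraries. The interferon curves of the MYC library lie to the left, with medians of 3 and 2 UMIs in terminal neutrophils, and the ribosomal curves to the right, with medians of 28 and 49.

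Promoter sequence was read for genes on both sides of the comparison, to show the interferon-stimulated response element core, made of 2 copies of GAAA with any 2 bases between them on either strand, which the interferon-activated STAT and IRF factors are known to bind. The search covered the 250 bases before each RefSeq start in GRCm38.p6. Counted by gene, with a match before any start, the element was present in 936 of 27025 genes with a promoter entry (3.46%). For the interferon list it was present in 12 of the 28 genes with an entry (42.9%). Of the 19 of these that were over 2-fold lower, 10 had it (52.6%). Of the genes averaging 20 CPM or more that had an entry, 142 of 3505 had it (4.05%). Among these it was present in 24 of 155 genes over 2-fold lower (15.5%) and 5 of 79 over 2-fold higher (6.33%). The lower genes include members of the interferon list. Given 5′ to 3′ on the strand of the gene, are the bases 190 to 31 before the start of 2 lower genes and of Ifitm2, which was higher, with the element in capitals. The windows are chr12:26456483-26456642 (minus strand) for Rsad2, chr19:34607767-34607926 (plus strand) for Ifit3b and chr7:140955992-140956151 (minus strand) for Ifitm2, and none overlaps an annotated exon.
Rsad2: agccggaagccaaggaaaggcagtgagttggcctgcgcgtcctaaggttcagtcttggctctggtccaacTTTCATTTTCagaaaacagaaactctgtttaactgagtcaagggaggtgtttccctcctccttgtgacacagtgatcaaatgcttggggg
Ifit3b: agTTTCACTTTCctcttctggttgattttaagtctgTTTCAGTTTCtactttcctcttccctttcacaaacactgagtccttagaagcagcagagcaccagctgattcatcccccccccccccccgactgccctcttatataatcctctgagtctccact
Ifitm2: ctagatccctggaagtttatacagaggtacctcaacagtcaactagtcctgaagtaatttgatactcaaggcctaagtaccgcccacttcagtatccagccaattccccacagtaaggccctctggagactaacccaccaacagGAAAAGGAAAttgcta
The element starts 120 bases before the start of Rsad2, 188 and 154 before that of Ifit3b, and 46 before that of Ifitm2. A match is a description of letters, not a bound site.

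Ifitm1 and Ifitm2, membrane proteins that restrict virus entry and that lie side by side on chromosome 7, went the other way from the interferon list. Ifitm1 (chr7:140967221-140969825) stood at 735.0 CPM (705 to 766) and 3150 CPM (3060 to 3241), giving a log2 ratio of 2.10. Ifitm2 (chr7:140954837-140955987) stood at 763.6 and 2603 CPM (1.77). Both were higher in the gelatinase stage too, with ratios of 2.25 and 2.11. Ifitm1 was detected in 37.1% and 67.2% of the thinned members, beside 1.31% and 6.12% of barcodes with B-cell markers, and unthinned in 55.5% and 79.3%. Their relative Ifitm6 was at 269.8 and 834.5 CPM (1.63). These 3 family members thus stood on the higher side while Rsad2 and the Ifit genes stood on the lower.

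The gene with the largest ratio by the naming rule was Prok2 (ENSMUSG00000030069, chr6:99711299-99726392, minus strand), which encodes prokineticin 2, a secreted chemotactic peptide. It had 18 UMIs or 5.922 CPM (3.51 to 9.36) in the control members and 152 UMIs or 102.3 CPM (86.7 to 120) in those of the MYC library, a ratio of 3.9 (3.40 to 4.90). When the gate was set on thinned counts the ratio was 3.19, and without Mmp8 the counts were 0 and 13 UMIs. Prok2 had a UMI in only 15 and 81 of the members, and was detected in 0.424% and 7.54% of them after thinning. It was not a terminal-stage transcript, with 37.30 and 147.8 CPM in gelatinase-stage neutrophils. Cd14, the co-receptor for bacterial lipopolysaccharide, was at 12.83 and 142.7 CPM (3.38, and 4.01 with S100a8 and S100a9 at 10%) and was detected in 0.848% and 11.2% of the thinned members and in 3.08% and 24.3% unthinned. After thinning, barcodes with B-cell markers showed it in 0.154% and 0.875%.

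Cxcl2, a chemokine and a ligand of Cxcr2 (ENSMUSG00000058427, chr5:90903871-90905938, plus strand), stood at 181.3 CPM (166 to 197) and 902.5 CPM (855 to 952), giving a ratio of 2.31. It was detected in 11.6% and 36% of the thinned members, in 0% (at most 0.284%) and 0.292% of the barcodes with B-cell markers, and in 19.7% and 52.8% of the members unthinned. Wfdc17, a small secreted protein of the whey acidic protein family (chr11:83703991-83706268), stood at 557.0 and 2514 CPM (2.17). Its thinned detection was 25.9% and 63.7%, but 1.62% and 19.8% in the barcodes with B-cell markers, so cells that should lack this transcript showed it more often in the MYC library, and the part of such background in the ratio was not tested. The stefin genes Stfa2 (14.48 and 218.1 CPM, 3.82), Stfa1 (72.71 and 344.6 CPM, 2.23) and Cstdc5 (41.13 and 213.3 CPM, 2.35) encode inhibitors of cysteine proteases. They are near-identical copies, and the share of each is uncertain. Stfa2, Stfa1 and Cstdc5 had a UMI in only 18, 51 and 25 of the control members. In the MYC library they were seen in 53, 58 and 48 of the 411 members. Thinned detection of Stfa2 was 1.17% and 7.54%. Without Mmp8 the ratios of Stfa2 and Stfa1 were 2.09 and 1.41, and Cstdc5 had 1 and 74 UMIs. Upp1, uridine phosphorylase, was at 28.30 and 105.0 CPM (1.86) and Nme2, a nucleoside diphosphate kinase, at 34.55 and 117.1 CPM (1.73, and 1.13 when the gate was set on thinned counts).

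Cxcl2 carries in the window before its start a motif of GGGA, then any 1 base, then TTTCC, searched on both strands and a form of the site of the inflammatory factor NF-kB, which is shown because Cxcl2 was higher. The motif was present in 112 of 27025 genes with a promoter entry (0.414%). Among those over 2-fold higher 1 of 79 had it, and among NF-kB regulators 2 of 12. The window is chr5:90903709-90903868 (plus strand, GRCm38.p6), bases 190 to 31 before the start, with the motif, 97 bases before the start, in capitals.
Cxcl2: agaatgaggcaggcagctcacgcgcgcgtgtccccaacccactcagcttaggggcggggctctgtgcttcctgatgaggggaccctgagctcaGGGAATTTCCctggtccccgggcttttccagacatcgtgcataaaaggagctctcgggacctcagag

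Il1b had a log2 ratio of -0.18 (-0.26 to -0.11), equal to the median of all genes within its interval, and 0.09 when S100a8 and S100a9 had to reach 10%. Over the whole neutrophil gate the Il1b ratio was -0.71 (127.7 and 77.78 CPM), and terminal neutrophils held 64.8% and 48.0% of the gate's Il1b UMIs. Il1rn, the receptor antagonist of interleukin-1, was at 172.1 and 54.51 CPM (-1.64), the inflammasome sensor Nlrp3 at 135.2 and 72.68 CPM (-0.89), the adaptor Pycard at 26.65 and 84.13 CPM (1.62) and Casp1 at 34.22 and 47.11 CPM (0.45). The 10 IL-1 and inflammasome genes had a median of -0.25 with 1 (10%) over 2-fold higher and 1 lower, beside 2.23% and 6.24% of all genes.

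Ptgs2 (chr1:150100031-150108227, plus strand) was at 284.3 CPM (266 to 304) and 67.97 CPM (55.4 to 82.6), giving a ratio of -2.05. It was detected in 17.7% and 4.87% of the thinned members, in 0.309% and 0% (at most 1.07%) of the barcodes with B-cell markers, and in 28.3% and 11.4% of the members unthinned. Fgl2 was at 488.3 and 195.8 CPM (-1.31). Both genes were thus high in terminal relative to gelatinase-stage neutrophils in each library and lower in the MYC library. The 7 eicosanoid and lipid mediator genes had a median of -0.28, which became 0.00 when S100a8 and S100a9 had to reach 10%. Alox5, 5-lipoxygenase, was at 170.8 and 117.8 CPM (-0.53), and its partner Alox5ap at 819.6 and 1228 CPM (0.58).

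The 15 NF-kB regulators and Tnf had a median of -0.31, with 2 (13.3%) over 2-fold lower and 0 higher, beside 6.24% and 2.23% of all genes. Nfkb1, a subunit of the factor, was at 110.9 and 62.59 CPM (-0.82), Tnfaip2 at 702.4 and 426.7 CPM (-0.72), and Tnip1, an inhibitor, at 42.44 and 17.50 CPM (-1.23, and -2.46 without Mmp8 from 3 UMIs in the MYC library), while the inhibitor Nfkbia was at 170.4 and 240.9 CPM (0.50), Ier3 at 100.3 and 168.9 CPM (0.75) and Tnf at 16.12 and 27.59 CPM (0.74). Nfkbid, an atypical inhibitor of the same list, was at 87.52 and 25.57 CPM (-1.74). The group therefore held members on both sides.

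Immediate-early genes, which respond within minutes to stimuli and to cell preparation, split as well. The 13 of them had a median of 0.01, which became -0.05 as a mean over cells and -0.06 without Mmp8. Egr1 was at 193.1 and 343.2 CPM (0.83), Klf2 at 644.9 and 1176 CPM (0.87) and Ier2 at 531.0 and 872.2 CPM (0.71), while Fos was at 984.1 and 993.4 CPM and Fosl2 at 242.2 and 117.1 CPM (-1.04, and -0.84 without Mmp8). The 15 dissociation-stress genes, which overlap this list, had a median of 0.07 with 0 past 2-fold in either direction. Of the 6 chemokine genes 2 were over 2-fold higher and 1 lower, where all genes with 50 UMIs gave 2.23% and 6.24%. Besides Cxcl2 the atypical receptor Ccrl2 was higher (11.19 and 26.25 CPM, 1.16), and Ccl4 was lower (25 and 9.422 CPM, -1.32, and -0.89 with S100a8 and S100a9 at 10%).

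Of the 9 chemoattractant receptors with at least 50 UMIs, 7 had ratios under 0, as did 3708 of all 5884 genes with that many UMIs. Their median was -0.55, with 2 (22.2%) over 2-fold lower and 1 (11.1%) higher, beside 6.24% and 2.23% of all such genes. Cxcr2 had a log2 ratio of -0.71 (-0.79 to -0.64), and -0.57 in the gelatinase stage. Ptafr, the receptor for platelet-activating factor, was at 173.4 and 72.68 CPM (-1.24), and Cxcr1 at 16.12 and 5.384 CPM (-1.42, and -0.69 among members without Mmp8). The marrow-retention receptor Cxcr4 was at 186.9 and 116.4 CPM (-0.68, and -0.06 without Mmp8), Ccr1 at 857.4 and 584.2 CPM (-0.55), and the formyl peptide receptor Fpr2 at 425.4 and 324.4 CPM (-0.39), while Fpr1 stood at 141.8 and 147.4 CPM. C5ar1, the receptor for complement C5a, was at 274.4 and 240.3 CPM (-0.19), close to the median of all genes, and the second C5a receptor C5ar2, named by rule, at 111.5 and 29.61 CPM (-1.88, and -2.59 without Mmp8). Ltb4r1, the receptor for leukotriene B4, was the exception on the higher side, at 54.62 and 138.6 CPM (1.33).

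The 16 growth factor and cytokine receptors had a median of -0.26, with 1 (6.25%) over 2-fold higher and 0 lower, beside 2.23% and 6.24% of all genes. Il6ra was at 226.7 and 127.9 CPM (-0.82). The interferon receptor chain Ifnar1 was at 77.32 and 46.44 CPM (-0.72), Ifngr2 at 171.7 and 119.1 CPM (-0.52) and Ifngr1 at 119.1 and 174.3 CPM (0.55). Il10ra was at 9.212 and 20.86 CPM (1.10, and 0.54 when the gate was set on thinned counts). The 11 adhesion molecules had a median of -0.26 and 0 past 2-fold. The integrin chains Itgal and Itgam, which form receptors for vessel walls and complement, were at 373.4 and 246.3 CPM (-0.60) and at 575.1 and 467.7 CPM (-0.30), and Itgb2 at 497.5 and 479.2 CPM.

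Alarmins, danger signals that many of these cells store, had a median of 0.52 over 9 genes, with a range of 0.45 to 0.70 over the alternative settings. Of the 9 genes 8 had ratios above 0 and 1 (11.1%) was over 2-fold higher, beside 2.23% of all genes. Lgals3 was at 334.6 and 895.1 CPM (1.42), Anxa1 at 476.4 and 905.2 CPM (0.92), S100a4 at 71.40 and 123.8 CPM (0.79, and 1.64 as a mean over cells), S100a11 at 3785 and 5314 CPM (0.49) and S100a6 at 6865 and 8639 CPM (0.33). Hmgb1 was at 301.4 and 321.0 CPM, and Hmgb2 was lower, at 1885 and 1444 CPM (-0.38). S100a9, which the rule used, was at 73525 and 106939 CPM (0.54), and S100a8 at 64399 and 65629 CPM (0.03). The 15 genes of the alarmin and Toll-like receptor list had a median of -0.16 (0.02 under median-of-ratios scaling). Among them Tlr6 was at 26.32 and 8.076 CPM (-1.59) and Tlr2 at 104.6 and 81.43 CPM (-0.36). Clec4e was at 221.1 and 347.3 CPM (0.65) and Clec4d at 533.0 and 422.6 CPM (-0.33).

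The 9 secondary granule genes had a median of 0.32, with 1 (11.1%) over 2-fold higher, beside 2.23% of all genes, and the iron-binding protein Lcn2 at 1790 and 2884 CPM (0.69). The 11 gelatinase granule genes had a median of -0.17 (0.01 under median-of-ratios scaling) and 0 past 2-fold. Among them Retnlg was at 12160 and 22445 CPM (0.88), while Mmp9, the gelatinase itself, was at 1890 and 1481 CPM (-0.35) and Padi4, which modifies histones in extracellular traps, at 260.2 and 168.9 CPM (-0.62). Mmp8, used by the rule, was at 820.6 and 560.6 CPM (-0.55). Lysozyme (Lyz2) was at 2923 and 2880 CPM. The 7 NADPH oxidase genes had a median of -0.14 (0.04 under median-of-ratios scaling), with the subunits Cybb at 273.4 and 191.8 CPM (-0.51) and Ncf1 at 549.5 and 424.0 CPM (-0.37) below 0 and Cyba at 730.4 and 1178 CPM (0.69) and Ncf4 at 169.1 and 308.2 CPM (0.86) above it.

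The 13 Fc and phagocytic receptors had a median of -0.32, with 1 (7.69%) over 2-fold lower, a share near the 6.24% of all genes. Lilra6 was at 205.3 and 86.82 CPM (-1.23), Cd300ld at 568.5 and 310.9 CPM (-0.87), the signal-regulatory protein Sirpa at 346.5 and 229.5 CPM (-0.59) and the IgG receptor Fcgr3 at 417.8 and 335.2 CPM (-0.32), while Fcer1g, the signalling chain of several Fc receptors, was at 922.2 and 1342 CPM (0.54). The genes of antigen presentation through MHC class I had a median of -0.58, and of these 12 genes 10 had ratios under 0 and 2 (16.7%) were over 2-fold lower, beside 6.24% of all genes. B2m, the light chain of every class I molecule, was at 1541 and 973.2 CPM (-0.66), H2-K1 at 692.2 and 370.8 CPM (-0.90) and H2-Q7 at 60.87 and 23.56 CPM (-1.33), and H2-D1 at 1949 and 1688 CPM (-0.21) was near the median of all genes. Class I genes resemble each other in sequence, and reads may have been split between them.

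Ribosomal protein genes had the highest median ratio among the 27 lists. Of 82 with at least 50 UMIs, 27 (32.9%) were over 2-fold higher and 0 lower, beside 2.23% and 6.24% of all genes with that many UMIs, with a median of 0.89 and a range of 0.72 to 1.43 over the alternative settings. They made up 3.704% of the control members' UMIs and 6.419% of those in the MYC library. Rpl32 was at 339.2 and 1012 CPM (1.57), Rpl15 at 159.2 and 483.9 CPM (1.60) and Rpl10 at 138.5 and 405.8 CPM (1.54). Rps27 was at 782.4 and 758.5 CPM and Rps21 at 611.6 and 616.5 CPM. Rps18 was at 221.1 and 697.9 CPM (1.65), but 334 of its 672 control UMIs and 388 of its 1037 UMIs in the MYC library came from barcodes over 10000 UMIs. Without Mmp8 the ratios of Rpl32, Rpl15, Rpl10 and Rps18 were 2.16, 2.64, 2.34 and 2.52. Per barcode thinned to 1000 UMIs the median ribosomal protein count was 28 and 49, and in gelatinase-stage neutrophils 24 and 43.

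The 44 MYC-induced genes, which encode nucleolar, nucleotide and metabolic enzymes that MYC is known to activate, had a median of 0.46, with 2 (4.55%) over 2-fold higher and 2 (4.55%) lower, beside 2.23% and 6.24% of all genes. Lactate dehydrogenase (Ldha) was at 100.7 and 214.7 CPM (1.08, and 0.97 without Mmp8), Tpi1 at 41.78 and 81.43 CPM (0.95), and ornithine decarboxylase (Odc1), a classic MYC target, was lower, at 52.64 and 21.54 CPM (-1.25, and -0.88 without Mmp8). The 68 oxidative phosphorylation genes had a median of 0.36, with 5 (7.35%) over 2-fold higher, beside 2.23% of all genes, and 0 lower. Among them were Atp5g1 at 30.60 and 84.80 CPM (1.44) and Ndufa11 at 23.36 and 53.84 CPM (1.17). With Csf3r at 2 or more UMIs and above Mmp8 these ratios were 0.88 and 0.87, under 2-fold. Without Mmp8 that of Atp5g1 was 3.92 from 6 and 71 UMIs. The 22 glycolysis genes had a median of 0.16, which was -0.14 without Mmp8 and -0.03 with at least 200 UMIs per gene. Gapdh was at 466.5 and 1106 CPM (1.24), Pfkp at 25.99 and 53.84 CPM (1.02, and 0.73 when the gate was set on thinned counts), and Hk3, the hexokinase typical of myeloid cells, at 144.1 and 88.84 CPM (-0.69).

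The E-box CACGTG, the palindrome that MYC and its partner MAX are known to bind, was searched in the same 250 bases. It was present in 1854 of 27025 genes with an entry (6.86%) and in 385 of the 3505 of them with at least 20 CPM (11%). By list, 12 of 39 MYC-induced genes (30.8%), 5 of 62 ribosomal protein genes (8.06%) and 0 of 28 interferon-list genes had it. Of the genes over 2-fold higher 9 of 79 had it (11.4%), and of those over 2-fold lower 12 of 155 (7.74%). The share among genes that were higher was thus near that of all genes with at least 20 CPM. Prok2, first by the naming rule, and the glycolytic gene Ldha are shown because the motif lies before both, bases 190 to 31 before the start on the strand of the gene in GRCm38.p6, with the E-box in capitals. The windows are chr6:99726423-99726582 (minus strand) and chr7:46845614-46845773 (plus strand).
Prok2: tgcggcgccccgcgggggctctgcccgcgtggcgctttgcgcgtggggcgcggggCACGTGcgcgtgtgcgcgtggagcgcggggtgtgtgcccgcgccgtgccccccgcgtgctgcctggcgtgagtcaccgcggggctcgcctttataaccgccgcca
Ldha: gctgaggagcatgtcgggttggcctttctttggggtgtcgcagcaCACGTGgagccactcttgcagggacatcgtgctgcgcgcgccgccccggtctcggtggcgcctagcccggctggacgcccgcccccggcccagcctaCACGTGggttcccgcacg
The E-box starts 135 bases before the start of Prok2, and 145 and 48 bases before that of Ldha.

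The MYC network itself, 8 genes for partners and antagonists of MYC, had a median of -0.17 (0.00 under median-of-ratios scaling) and 0 members past 2-fold. The antagonist Mxd1, which is known to accompany granulocyte maturation, was at 1303 and 1083 CPM (-0.27), Mxi1 at 129.6 and 83.45 CPM (-0.63) and Max at 164.8 and 169.6 CPM. The 23 cell cycle genes had a median of -0.43, with a range of -0.44 to -0.02 over the alternative settings, and 2 (8.70%) were over 2-fold lower, beside 6.24% of all genes. The proliferation marker Mki67 was at 273.1 and 131.2 CPM (-1.05, and -0.40 among members without Mmp8) and Rrm2, a ribonucleotide reductase subunit, at 53.63 and 21.54 CPM (-1.28, and -0.96 as a mean over cells), while the histone gene H2afz was at 359.0 and 438.8 CPM (0.29). Mature neutrophils are known not to divide, and the source of these transcripts was not tested.

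The 15 survival and death genes had a median of -0.30 and 0 past 2-fold, beside 2.23% higher and 6.24% lower of all genes. Mcl1, on which neutrophil survival is known to depend, was at 1035 and 1131 CPM (0.13), and -0.07 among members without Mmp8. The death receptor Fas was at 109.9 and 69.99 CPM (-0.64, and -1.24 without Mmp8) and Bcl2l11, the gene of the death-promoting protein BIM, at 40.14 and 24.90 CPM (-0.67, and -1.33 without Mmp8). The 16 genes of G-CSF and JAK-STAT signalling had a median of -0.29 and 1 (6.25%) over 2-fold lower, near the share of all genes, with Jak1 at 383.6 and 255.1 CPM (-0.59), the kinase gene Tec at 40.47 and 15.48 CPM (-1.33, and -1.0 when the gate was set on thinned counts), Pim1 at 651.4 and 643.4 CPM and Socs3 at 102.7 and 172.3 CPM (0.74). Of the 22 myeloid transcription factor genes 0 passed 2-fold, beside the same shares of all genes, with a median of -0.21. Cebpb, which drives emergency granulopoiesis, was at 825.2 and 1357 CPM (0.72), Hif1a, which answers to low oxygen, at 87.19 and 115.1 CPM (0.40) and Klf4 at 23.36 and 11.44 CPM (-0.97, between -1.82 and -0.30 over the settings). The 22 actin and migration genes had a median of 0.06 (-0.08 without Mmp8), with Arpc3 at 469.5 and 736.9 CPM (0.65) and Rgs2, a brake on G-protein signalling, at 1100 and 555.2 CPM (-0.98).

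**Figure D5:**
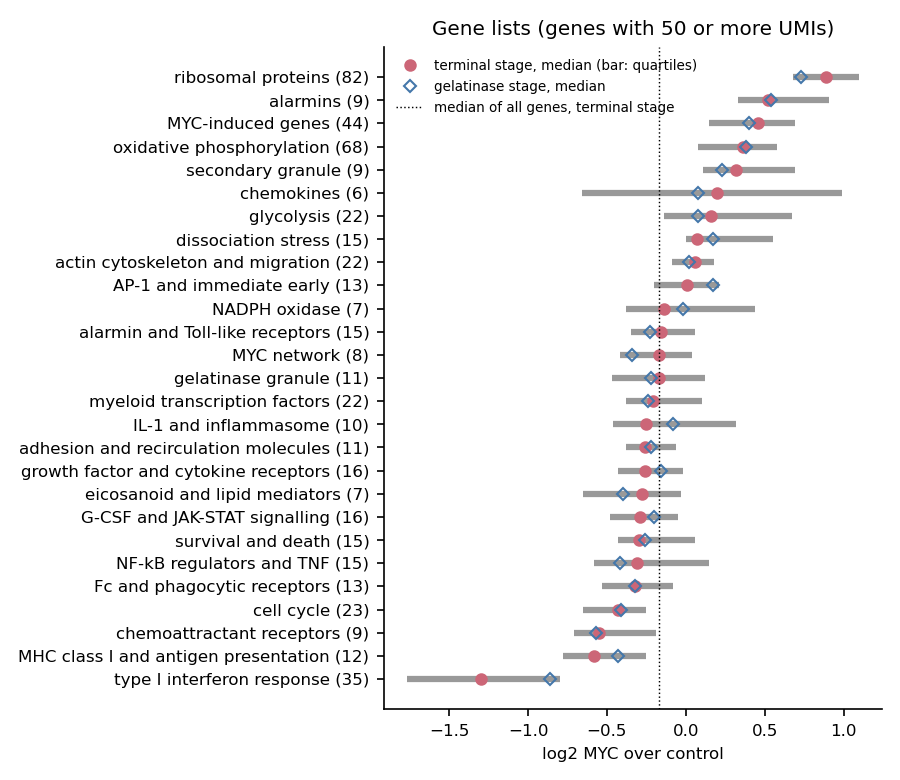
Median log2 ratio of MYC over control for 27 gene lists (number of genes with at least 50 UMIs in brackets), in terminal neutrophils (red, with bars from the lower to the upper quartile of the genes) and gelatinase-stage neutrophils (blue diamonds). The interferon list lies at -1.30 and the ribosomal protein genes at 0.89, either side of the median of all genes (dotted line, -0.17).

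Some of the genes that the naming rule picked on the lower side are best known from other cells. Prss34 and Mcpt8 encode proteases of basophils, and stood at 120.4 and 29.61 CPM and at 148.7 and 39.71 CPM. Of the control UMIs 303 of 366 and 381 of 452 came from 1 barcode, and without barcodes over 10000 UMIs the ratios were 0.49 and 0.74 in place of -1.99 and -1.88. Jchain, the joining chain of secreted antibodies and a B-lineage marker here, was at 135.9 and 39.71 CPM (-1.75) and at 240.2 and 86.49 CPM in gelatinase-stage neutrophils. When the gate was set on thinned counts its ratio was -3.40. The control members then went from 943 to 1014, but their Jchain UMIs from 413 to 1436. In the MYC library the Jchain UMIs went from 59 to 79. Scnn1a, a subunit of the epithelial sodium channel, was at 99.03 and 27.59 CPM (-1.81) in 229 and 35 barcodes.

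Gelatinase-stage neutrophils come from the same 2 libraries, so their values are set beside those of the terminal stage only as a description. Rsad2 stood there at 200.8 and 50.31 CPM and Ptgs2 at 58.81 and 16.30 CPM. Cxcl2 stood at 84.65 and 548.6 CPM, and Wfdc17 at 119.7 and 726.5 CPM. The median of the interferon list was -0.86 there, against -1.30 in terminal neutrophils, and that of the ribosomal protein genes 0.73 against 0.89. Whether the terminal stage differs from the gelatinase stage in these ratios was not tested.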

How the data were processed

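The 2 whole-number count matrices were used as deposited by the authors, 1 per library, with UMI counts for 32286 features and 17073 (control) or 14496 (MYC) barcodes. Per the file headers, the authors made the counts in Cell Ranger 6.0.0, and the submitters' processing notes list GRCm38, mm10, Cell Ranger 6.0 and Seurat. The annotation, the sequence of the MYC feature and the calling of barcodes are not given in the sources used here.

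Members were gated on raw counts, and doublets were kept. UMIs were summed over members and scaled to 1000000 per library and stage (CPM). Levels have exact Poisson intervals, ratios exact conditional binomial intervals and shares Clopper-Pearson intervals. Differences of shares have intervals of the Newcombe form, built from the Clopper-Pearson limits in place of Wilson limits. Ratios are log2 with a pseudocount of 1 CPM, and intervals were computed without it. A call is a ratio past 2-fold. For shares of barcodes with a UMI, each barcode was thinned to 1000 UMIs (seed 0). Counting was not corrected for free RNA. Barcodes with B-cell markers served as the comparison for it.

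Named genes were the 12 highest and 12 lowest ratios among genes averaging at least 50 CPM whose interval excluded 1, without gate, mitochondrial, haemoglobin, immunoglobulin, T-cell receptor or sex-linked genes and unnamed gene models. To these came the 10 highest and 10 lowest stage ratios, and genes of 28 lists with at least 50 UMIs (in lists above 15 genes, the 4 highest and 4 lowest). Gate genes were left out of the list medians, and in the primary granule list too few of the other genes reached 50 UMIs for a median. Some genes that these rules pick are not reported here. Members, lists and rules were chosen with earlier results of these data known.

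Positions came from GENCODE vM21 (GRCm38) and promoter sequences from RefSeq (GRCm38.p6). Python 3.11.15, numpy 2.4.6, scipy 1.17.1, pandas 2.3.3, scanpy 1.11.5 and matplotlib 3.10.9 were used, and the ratio step was tested on simulated data. The alternatives tried are given in the closing section.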

Additional observations from a re-analysis of the deposited data

Results flagged for a closer look

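Ccnd2, which encodes cyclin D2 and is on the MYC-induced list, had ratios of opposite sign in 2 neighbouring stages. In terminal neutrophils it stood at 78.63 CPM in the control (239 UMIs) and 53.84 CPM in the MYC library (80 UMIs), a log2 ratio of -0.54 (-0.93 to -0.18). In gelatinase-stage neutrophils of the same libraries it stood at 28.18 and 36.73 CPM, with a ratio of 0.37. In the MYC library 17 of the 80 UMIs in terminal neutrophils came from 1 barcode, and without barcodes over 10000 UMIs the ratio there was -0.84. Of 4218 genes compared in both stages, 18 had ratios of opposite sign with both intervals excluding 0, and Ccnd2 is given because it is a named gene whose 2 ratios both passed 0.25 in size. The difference between the stages was not tested.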

How the results depend on the processing

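With 1 library per group these values have no replicate check, and depth limits ratios of genes with few UMIs. No paired analysis was possible because each group has 1 library and no test was run. Under 16 alternative settings, 14 of them planned, 117 of 135 named genes and 19 of 27 list medians kept their direction. The difference in share was -1.76 points with S100a8 and S100a9 at 10% or more, -0.432 with 0 Mmp8 UMIs and -3.85 under 5% mitochondrial UMIs. Genes over 2-fold higher and lower in the MYC library numbered 190 and 123 with median-of-ratios scaling, 483 and 479 with 0 Mmp8 UMIs, 71 and 102 at 50 CPM, and 363 and 871 with at least 10 UMIs only, where more genes are tested. Scaling that left out the 20 most abundant genes gave 178 higher and 293 lower of 5706 tested. Genes over 2-fold higher and lower than in the gelatinase stage numbered 92 and 62 with 0 Mmp8 UMIs, 24 and 16 when the gate was set on thinned counts, 30 and 18 at 50 CPM and 101 and 110 with at least 10 UMIs only. Of the 18 genes that changed sign, 13 had intervals that included 0 (Fpr1, Itgb2, Cd177, Fos, Zbp1, Bst2, Dhx58, Tlr4, Lyz2, Pim1, Max, Rps27 and Rps21). The rest were Prss34, Mcpt8, Mcl1, Il1b and Myc. Prss34 had 0.48 with Csf3r at 2 or more and above Mmp8, and 1.33 with 0 Mmp8 UMIs. On the thinned gate Prss34 had 0.25, and without barcodes over 10000 UMIs 0.49. Mcpt8 had 0.81, 1.39, 0.39 and 0.74 in the same order, and 0.22 with S100a8 and S100a9 at 10%. Mcl1 had -0.07 with 0 Mmp8 UMIs, Il1b 0.09 with S100a8 and S100a9 at 10%, and Myc -0.12 on the thinned gate. The 8 list medians that changed sign or reached 0 were those of immediate-early genes, Toll-like receptors, gelatinase granules, NADPH oxidase, glycolysis and actin, the MYC network, and the eicosanoid list, which was at 0.00 with S100a8 and S100a9 at 10%. For Prss34 and Mcpt8, 1 control barcode holds most UMIs. For the others the cause was not tested. The settings not named so far were Camp, Ngp and Ltf under 1%, 2000 or more UMIs, a pseudocount of 0.1 CPM, means over cells and lists limited to genes with 200 UMIs. Removing Scrublet calls, a planned setting, was not run, since 0 of 12896 barcodes of the MYC library passed its threshold. In its place barcodes with a score over 0.2 were removed, which like the removal of barcodes over 10000 UMIs was chosen after seeing the data.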
